A study of Mus musculus with 24 samples.

Results

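The clustered histone genes of the mouse are described here in cultured primary cells of the alveolar type II kind, the surfactant producers of the lung. They were all genes whose name on the array began with Hist1h, Hist2h, Hist3h or Hist4h. Of 24096 named genes on the array, 49 met this rule, through 56 probes. One probe stood for each gene, the one with the highest mean log2 signal over all 24 arrays, which mattered for the 6 genes with more than 1 probe. The genes comprised 6 of class H1, 14 of H2A, 12 of H2B, 8 of H3 and 9 of H4. Cluster 1 held 36 of them, cluster 2 held 9, cluster 3 held 3 and cluster 4 held 1. The cells had grown to a monolayer at an air-liquid interface before exposure. In the first experiment, cells received NaHS at 100 µM, a fast hydrogen sulfide donor, or DMEM medium as vehicle, for 6 h or 24 h. In the second, all cells received 100 µM GYY4137, a compound that releases hydrogen sulfide slowly, for 24 h in 85% or 21% O2, and no group without the donor was analysed here. Each of the 6 groups held 4 arrays. Whether the 4 came from different cultures or mice is not stated, and p-values therefore measure only the spread between these samples, which may be technical.

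H2A, H2B, H3 and H4 form the core around which DNA is wound, and H1 binds the linker DNA between cores. Most genes of the clusters are replication-dependent: they are transcribed in S phase, and their messenger RNAs end in a conserved stem-loop in place of a poly(A) tail. Some cluster genes also give spliced or longer polyadenylated transcripts that run past the stem-loop. The labelling kit used here starts complementary DNA from an oligo(dT) primer, which pairs with poly(A) tails.

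The probes that hold the whole stem-loop, and that of Hist2h2aa2, are printed because the results below are also given for them. Of the 49 chosen probes, 6 held a perfect stem-loop of 16 bases with a 6-base stem and a 4-base loop, as did 44 of all 55681 probes (0.079%). In 5 of these 6 the probe ended within 6 bases of the stem-loop, and in the Hist2h2aa1 probe 38 bases followed it. Capitals mark the stem-loop in the 60-base probes, written 5′ to 3′ on the transcript strand.
Hist1h3a: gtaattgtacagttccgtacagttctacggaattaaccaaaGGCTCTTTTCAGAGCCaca
Hist1h3g: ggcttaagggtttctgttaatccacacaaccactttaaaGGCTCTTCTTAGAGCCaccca
Hist1h3i: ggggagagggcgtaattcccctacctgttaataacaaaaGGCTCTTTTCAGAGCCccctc
Hist1h4m: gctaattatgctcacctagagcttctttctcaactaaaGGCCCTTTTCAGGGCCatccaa
Hist2h2bb: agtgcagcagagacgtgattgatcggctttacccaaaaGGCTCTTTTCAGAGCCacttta
Hist2h2aa1: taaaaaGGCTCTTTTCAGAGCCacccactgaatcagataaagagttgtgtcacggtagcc
Hist2h2aa2: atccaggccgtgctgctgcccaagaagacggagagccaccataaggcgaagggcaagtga
The last line is the probe of Hist2h2aa2, which holds no stem-loop. It lies at chr3:96049837-96049896 (mm9, plus strand) and the Hist2h2aa1 probe at chr3:96049949-96050008, so their starts are 112 bases apart. Hist2h2aa1 and Hist2h2aa2 are near-identical copies, and the Hist2h2aa2 probe listed 2 RefSeq transcripts. The array listed more than 1 RefSeq transcript for 14 of the 49 chosen probes, against 20.1% of all probes with any, 5 in H2A, 3 in H2B, 2 in H3 and 4 in H4, so signals within these classes cannot always be given to 1 gene.

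Levels are log2 signals minus the array's own 75th percentile, so 0 is that percentile and 1 unit is a doubling. The share of probes well above background was 54.8% to 57.3% for the arrays of slide 1, 67.8% to 73.9% for those of slide 2, 71.5% to 77.1% for slide 3 and 69.4% to 77.6% for slide 4. The NaHS experiment was split evenly over slides 1 and 2, 2 arrays of a group to a slide, with the 24 h arrays in the second row and the 6 h arrays in the first, and with NaHS arrays in columns 3 and 4 and vehicle arrays in columns 1 and 2, so array position cannot be told apart from time or treatment. All arrays of 85% O2 were on slide 4 and all of 21% O2 on slide 3, so slide and oxygen cannot be told apart. On both slides replicates 1 to 4 lay in columns 1 to 4, so replicate number and array column cannot be told apart there. Of 14 alveolar type II markers 11 lay above background on all 24 arrays, among them Sftpc, Sftpb, Abca3 and Lamp3, and so did 9 of 9 fibroblast and 8 of 8 smooth muscle and pericyte markers.

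Most clustered histone genes were measured in every group. Of the 49 genes, 41 lay well above background on all 24 arrays, including all 8 of class H3 and all 9 of class H4, and the other 8 on 2 to 23 arrays. The linker histone gene Hist1h1d was above background on 2 arrays, 1 in 85% O2 and 1 in 21% O2, and was too dim to test in either experiment. The other 48 genes were tested in both. Within the NaHS experiment 4 of them differed between slide 2 and slide 1 by more than 1 log2 unit, and the rest by -0.52 to 0.75. Hist1h1t, a testis H1 gene, averaged -1.46 on slide 2 and -4.74 on slide 1. The pseudogene-named Hist3h2bb-ps was above background on all 8 arrays of slide 2 and on 0 of the 8 arrays of slide 1. The remaining 2 were Hist1h2bb, at -2.38 on slide 2 and -3.95 on slide 1, and Hist1h2bp, at -3.78 and -4.83 on the same slides.

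**Figure D1:**
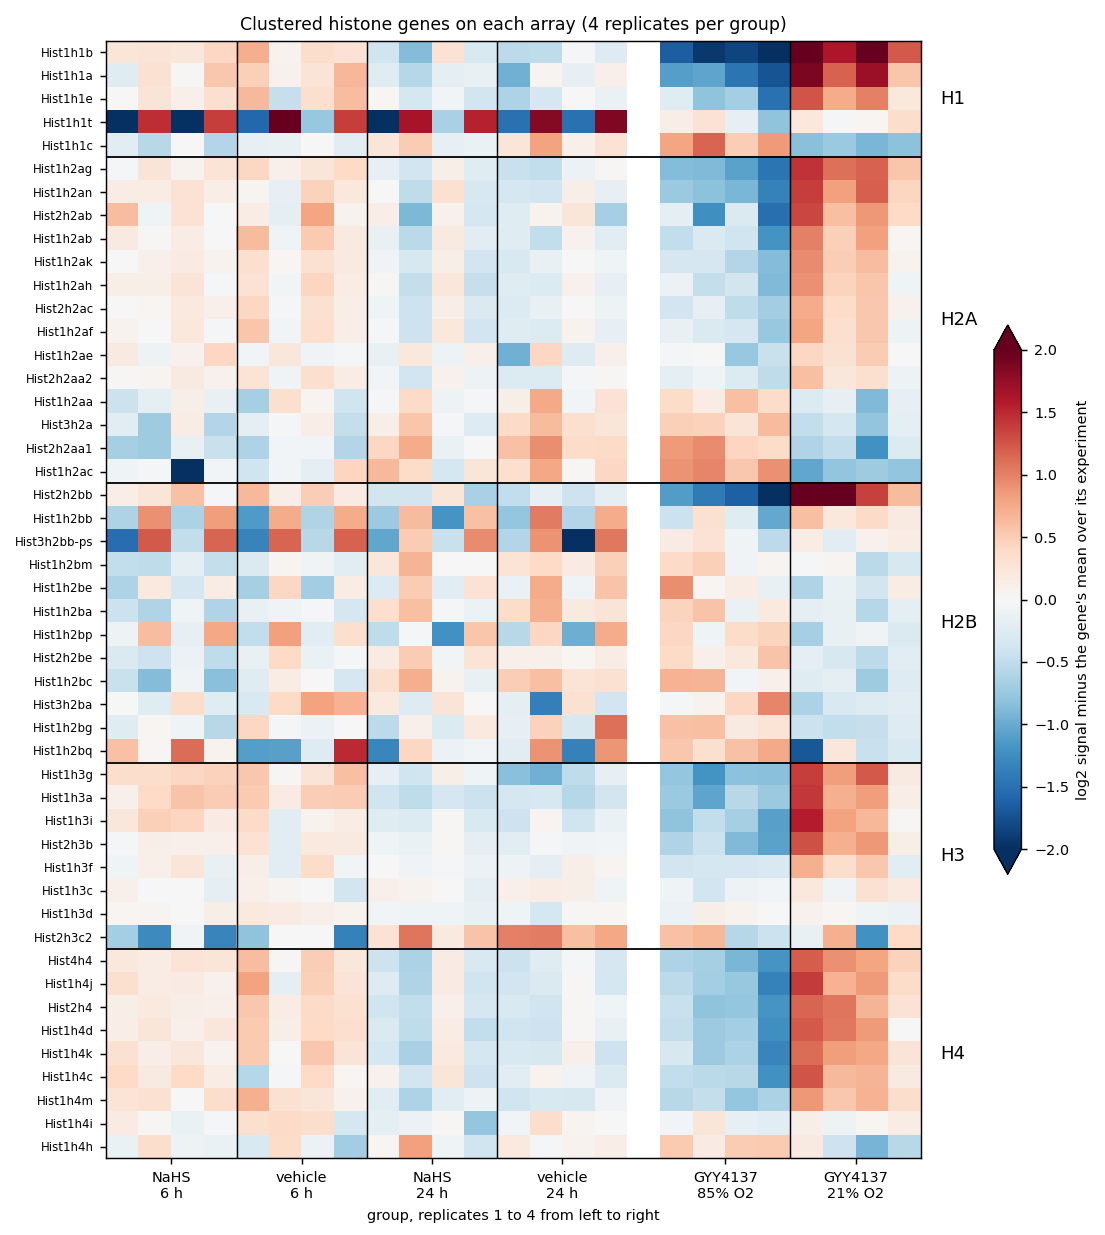
Log2 signal of each clustered histone gene (rows, by class) on each array (columns, 4 replicates per group), minus the gene's mean over its own experiment; red is higher and blue lower, and the scale ends at 2 units either way. The 85% and 21% O2 groups part in most H1, H2A, H3 and H4 genes, and Hist1h1t and Hist3h2bb-ps alternate with the slides in the NaHS experiment.

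In 85% O2 most histone genes that changed were lower, and some were higher. With limma and Benjamini-Hochberg adjustment over all 34667 genes and unnamed probes tested, 32 of 48 histone genes passed an adjusted p of 0.05 in 85% against 21% O2, against 15.8% of all features. Of these 24 fell, where 5.58% of all features fell, and 8 rose, where 10.2% of all features rose. The median difference of the 48 genes was -0.70, and that of all features 0.07. Among the classes, 7 of 9 H4 genes fell and 1 rose, 5 of 8 H3 genes fell and 0 rose, 8 of 14 H2A genes fell and 4 rose, 3 of 5 H1 genes fell and 1 rose, and 1 of 12 H2B genes fell and 2 rose. In bulk RNA of this kind, fewer cells in S phase and less histone RNA per cell cannot be told apart. With each array centred on its median the differences shift down by about 0.14, and 26 histone genes fell and 5 rose, while calls over all features were 1962 higher and 3365 lower with it, against 3543 higher and 1936 lower without it; no histone gene called without that centring changed direction with it.

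The H1 genes held both large falls and a rise. Hist1h1b, which encodes linker histone H1.5, measured -0.43, -0.71, -0.62 and -0.93 in 85% O2, against 3.60, 2.84, 3.55 and 2.45 in 21% O2. Hist1h1a, the H1.1 gene, measured -2.80, -2.75, -3.16 and -3.42 in 85% O2, against 0.18, -0.52, 0.01 and -1.14 in 21% O2. In both genes every array in 85% O2 lay below every array in 21% O2, and the log2 differences were -3.78 (95% interval -4.40 to -3.17, adjusted p = 0.00146) and -2.66 (-3.35 to -1.98, adjusted p = 0.00274). Hist1h1e, the H1.4 gene, fell by 1.61 (adjusted p = 0.0137). Hist1h1c, the gene of H1.2, which is also expressed outside S phase, went the other way, at 4.46, 4.84, 4.16 and 4.53 in 85% O2 against 2.83, 2.92, 2.76 and 2.85 in 21% O2. Its groups did not overlap, and it rose by 1.66 log2 units (1.31 to 2.0, adjusted p = 0.00146). Hist1h1t differed by -0.28 (-0.82 to 0.25, adjusted p = 0.42) and was not called.

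**Figure D2:**
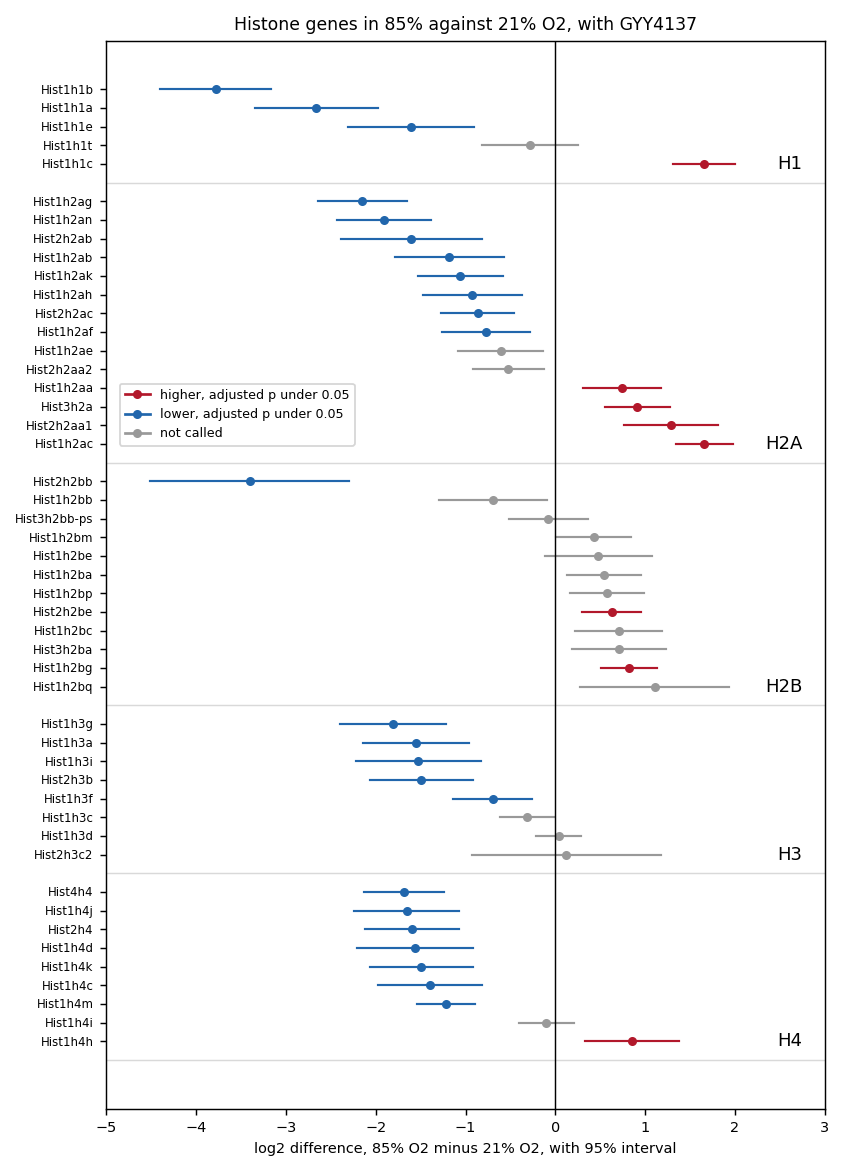
Log2 difference of each clustered histone gene, 85% O2 minus 21% O2 with GYY4137, with its 95% interval, grouped by class and ordered by size (n = 4 arrays each). Of the 48 genes 24 are called lower and 8 higher; most H3 and H4 genes lie left of 0, and 9 of 12 H2B genes lie right of it.

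Within H2A the differences ran from -2.15 to 1.66. Hist1h2ag measured 5.60, 5.59, 5.40 and 5.01 in 85% O2, against 7.92, 7.57, 7.66 and 7.04 in 21% O2, a difference of -2.15 (adjusted p = 0.002). Hist1h2an measured 5.39, 5.31, 5.22 and 4.78 in 85% O2, against 7.51, 6.94, 7.31 and 6.56 in 21% O2, a difference of -1.91 (adjusted p = 0.00335). The groups did not overlap in either, but their probes share a run of 32 bases, and 17 of the 24 pairs of chosen histone probes that share 20 or more bases are pairs of H2A genes, so these are not independent readings. Hist1h2ac rose, with -3.06, -2.99, -3.43 and -3.06 in 85% O2 against -5.0, -4.75, -4.67 and -4.76 in 21% O2, a difference of 1.66 (1.34 to 1.98, adjusted p = 0.00146). Hist2h2aa1 rose by 1.29, Hist3h2a by 0.91 and Hist1h2aa by 0.74. With the replicate number as a block, Hist1h2aa was no longer called (adjusted p = 0.0761). Hist2h2ab was above background on 0 of 4 arrays in 85% O2 and on 4 of 4 in 21% O2, and was at least 3.03-fold lower in 85% O2 a bound set by its own signal or, where higher, by the faintest probe that still counted as above background (adjusted p = 0.0198). It was the single called gene that met the filter on dim probes only through the group where it is high, so its call is no support; without it 31 of 47 genes were called, 23 lower and 8 higher, and 7 H2A genes fell.

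Of the 12 H2B genes 1 fell, 2 rose and 9 were not called. Hist2h2bb fell, with -1.91, -2.21, -2.44 and -3.44 in 85% O2 against 1.92, 1.29, 0.57 and -0.17 in 21% O2, a difference of -3.40 (-4.51 to -2.30, adjusted p = 0.00517). The 2 groups did not overlap, although the spread within each was wide. Its second probe was above background on 1 of 24 arrays, and with the mean of its 2 probes the gene was no longer called (adjusted p = 0.14). Hist2h2be rose by 0.63 (adjusted p = 0.0238) and Hist1h2bg by 0.82 (adjusted p = 0.00884). Of the 17 settings run, 9 called Hist2h2be and all 17 called Hist1h2bg. The 9 H2B genes that were not called differed by -0.70 to 1.10, and 7 of them had positive differences. With the replicate block Hist1h2bc, Hist1h2ba and Hist3h2ba were called as well, at adjusted p of 0.035, 0.0421 and 0.046, with differences of 0.70, 0.54 and 0.71. RefSeq gives 5 histone genes here a span over 1000 bases (Hist1h2bc, Hist1h2be, Hist1h2bp, Hist1h2bq and Hist2h2be, all H2B); their differences were 0.48 to 1.10, with 1 called. The 43 tested genes with shorter spans had a median of -0.87, with 24 falls, 7 of the 8 called rises and 12 positive differences. This split by span was chosen after the values were seen, and the part of span in the rises was not tested.

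Among H3 and H4 genes 12 fell and 1 rose. Hist1h3g measured -3.28, -3.70, -3.33 and -3.34 in 85% O2, against -1.14, -1.67, -1.29 and -2.34 in 21% O2, a difference of -1.80 (adjusted p = 0.00528). Hist1h3a, Hist1h3i and Hist2h3b fell by 1.55, 1.53 and 1.49, and Hist1h3f fell by 0.70 without and was not called with the replicate block (adjusted p = 0.0652). Hist1h3c, Hist1h3d and Hist2h3c2 differed by -0.32, 0.04 and 0.12 and were not called. For H4, Hist1h4m measured -3.21, -3.13, -3.43 and -3.28 in 85% O2, against -1.79, -2.12, -1.97 and -2.30 in 21% O2, a difference of -1.22 (adjusted p = 0.00289). Hist4h4, the single gene of cluster 4, measured 2.26, 2.22, 1.97 and 1.70 in 85% O2, against 4.09, 3.80, 3.66 and 3.33 in 21% O2, a difference of -1.69 (adjusted p = 0.00289). In both H4 genes the groups lay apart by more than the spread within either.

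Further H4 genes lay close to these. Hist2h4 measured 4.43, 4.08, 4.10 and 3.70 in 85% O2, against 6.04, 5.95, 5.55 and 5.17 in 21% O2, a difference of -1.60 (adjusted p = 0.00536). Hist1h4j measured -0.22, -0.37, -0.46 and -1.05 in 85% O2, against 1.70, 1.01, 1.16 and 0.67 in 21% O2, a difference of -1.66 (adjusted p = 0.00705). Neither gene's groups overlapped, and Hist1h4c, Hist1h4d and Hist1h4k fell by 1.39, 1.56 and 1.49. Hist1h4h rose by 0.86 (adjusted p = 0.0399, and 0.0522 with the replicate block), with -0.98, -1.33, -1.0 and -0.99 in 85% O2 against -1.32, -1.92, -2.44 and -2.06 in 21% O2, where replicate 1 in 21% O2 overlapped the other group. Hist1h4i differed by -0.10 (-0.41 to 0.21), and its other 2 probes by 0.31 and -0.64, so its probes disagreed. The array gave no genome position for the probe that stood for this gene.

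**Figure D3:**
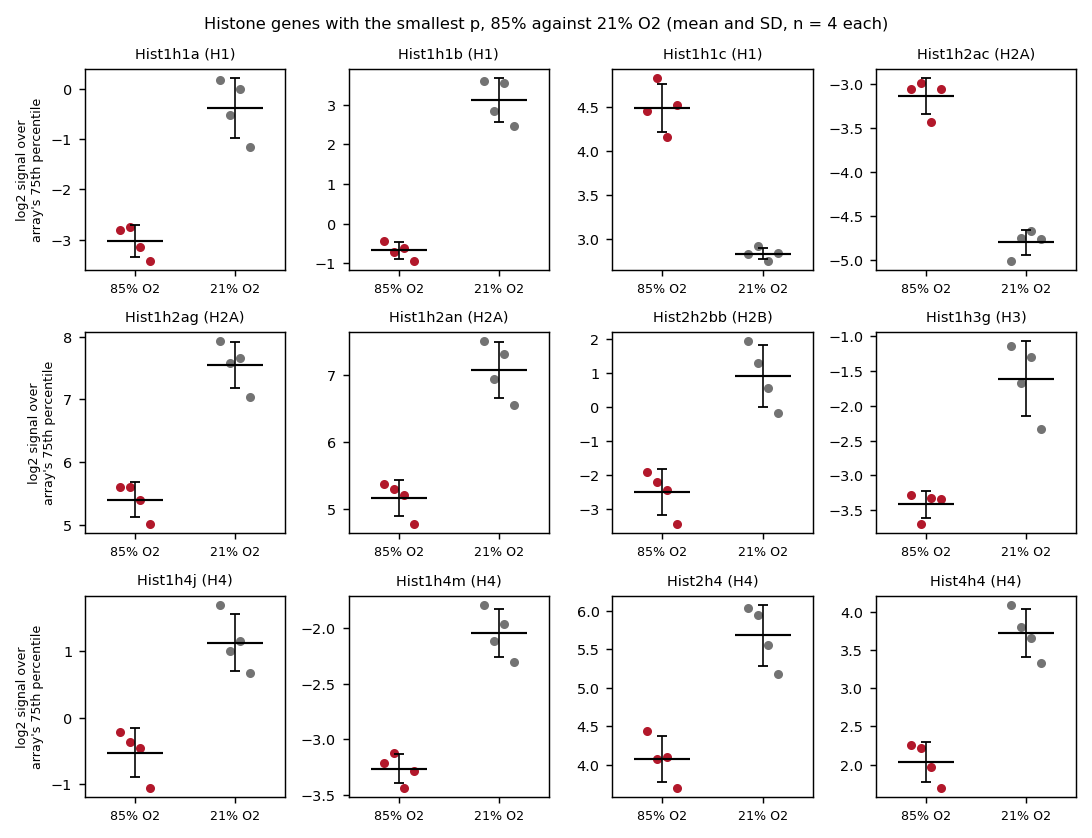
Log2 signal over the array's 75th percentile for the 12 clustered histone genes with the smallest p in 85% against 21% O2, with GYY4137 in all cells. Points are arrays, bars the mean and SD (n = 4 each); Hist1h1c and Hist1h2ac are higher in 85% O2, the other 10 lower, and no gene's groups overlap.

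Over all 48 genes, 24 lay lower and 11 higher in 85% O2 with no overlap between the groups, where 8.37% and 14.7% of all features did. The replicates differed in the same order in many of these genes, and replicate number cannot be told apart from array column here. Of the 24 genes called lower, replicate 4 was the lowest array of the 85% O2 group in 20 and of the 21% O2 group in 24, and replicate 1 was the highest in 15 and in 24. For the S phase gene list, replicate 4 had a summed signal of 131 times the array's 75th percentile in 85% O2 and 203 in 21% O2, against 116 to 138 and 274 to 331 for the other replicates of those groups. Its part in the histone result was not tested. Of the 32 calls, 22 were made in each of the 17 settings run, single arrays left out included, and no call changed direction in any of them. The genes called in the fewest settings were Hist1h4h (6), Hist1h2aa (7), Hist1h3f (8), Hist2h2be (9) and Hist1h2af (9).

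The genes were also read by whether their probe held the whole stem-loop. All 5 genes whose probe held it and ended within 6 bases of it fell in 85% O2, with differences of -3.40 to -1.22. Of all features 5.58% fell. The Hist2h2bb probe shares runs of 21 bases with those of Hist1h3a and Hist1h3i. That of Hist2h2aa1 shares 22, 21 and 20 bases with Hist2h2bb, Hist1h3a and Hist1h3i, so these are not independent readings. The Hist2h2aa1 probe, which runs on past the stem-loop, measured 3.77, 3.86, 3.35 and 3.28 in 85% O2, against 2.32, 2.43, 1.70 and 2.65 in 21% O2, a difference of 1.29 (0.76 to 1.82, adjusted p = 0.0113). The Hist2h2aa2 probe, which starts 112 bases before it on the same strand and ends in a stop codon, measured 6.67, 6.78, 6.58 and 6.35 in 85% O2, against 7.46, 7.09, 7.18 and 6.75 in 21% O2. Its groups overlapped, and its difference was -0.52 (-0.92 to -0.13, adjusted p = 0.0723), not called. Probes that the array ties to several RefSeq transcripts fell in 9 of 14 genes and rose in 0. The 28 tested genes whose probe held no whole stem-loop and listed at most 1 RefSeq transcript held 10 falls and 7 rises. Among these, the Hist1h2ae probe begins inside a stem-loop and runs on past it. Its difference was -0.61 (limma adjusted p = 0.0777), not called and opposite in sign to Hist2h2aa1. The Hist1h2ab probe ends inside a stem-loop, and its difference was -1.18, called. A pair of probes of Hist1h2ak, 1 at the start and 1 at the end of its coding sequence, differed by -2.27 and -1.06, so the size of the difference varied with the probe. The chosen probe, at the end, was the brighter, with a mean log2 signal of 16.2 against 12.9. It listed 3 RefSeq transcripts against 1, and the part of either in the sizes was not tested.

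**Figure D4:**
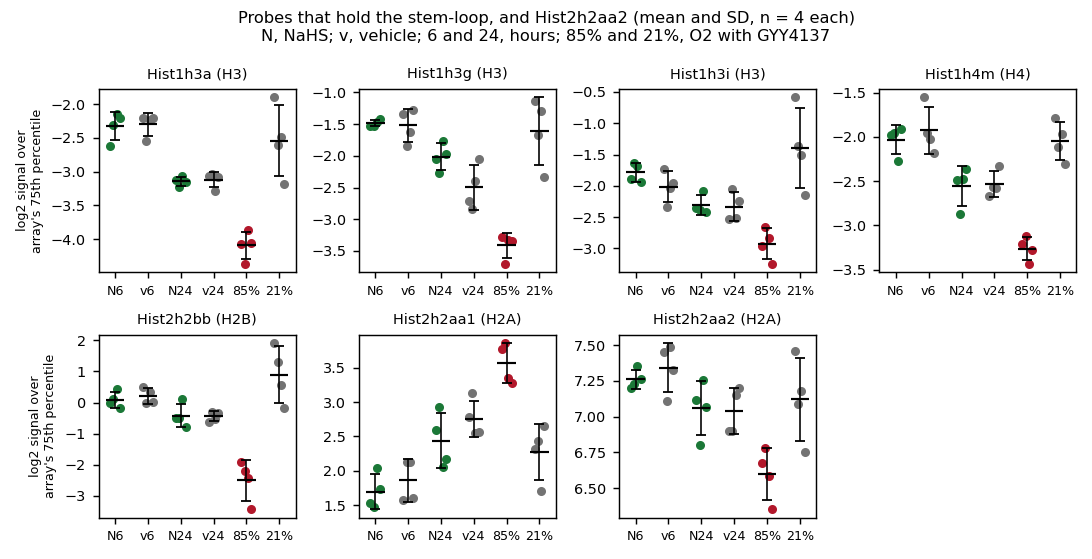
Log2 signal over the array's 75th percentile in all 6 groups for the 6 genes whose probe holds the stem-loop and for Hist2h2aa2; points are arrays, bars the mean and SD (n = 4 each). The 5 probes that end at the stem-loop are lowest in 85% O2, and Hist2h2aa1, whose probe runs on past it, is highest there.

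Genes that act with the histones were counted in the same fit, from 4 lists, to be read against the 15.8% of all features called, 5.58% as lower and 10.2% as higher. Of 28 tested S phase genes 25 fell in 85% O2 and 0 rose, with a median of -1.13; the 4 with the smallest p were Ccna2 (cyclin A2, -2.81), Gins2 (a subunit of the replicative helicase, -1.53), Pcna (the DNA polymerase clamp, -1.02) and Uhrf1 (which maintains DNA methylation, -2.32). Of 22 histone chaperone and assembly genes 7 fell and 0 rose, with a median of -0.18. They included Hat1 (the cytosolic acetyltransferase of new H4, -0.98), Hjurp (the chaperone of centromeric H3, -1.36), Chaf1b (a subunit of chromatin assembly factor 1, -1.11) and Asf1b (an H3-H4 chaperone, -1.51). Among 14 replication-independent histone genes 3 fell and 1 rose: H2afx (-1.06), Cenpa (-1.68) and H2afz (-0.49) fell and H3f3a (0.44) rose. Of 18 genes for histone transcription and 3′ end processing, Pou2f1 (0.66) and Sympk (0.54) rose and Cpsf2 (-0.53) fell, with a median of -0.01, a share of calls near that of all features. These lists were written with earlier results of these data known.

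Markers of 10 cell types were tested in the same fit, and 7 of 76 (9.21%) were called by oxygen, below the 15.8% of all features. They were Lamp3 (-1.04) of 12 tested for alveolar type II cells, Thy1 (-1.05) of 9 for fibroblasts, Des (-1.29) and Notch3 (1.36) of 8 for smooth muscle and pericytes, Tek (1.17) of 6 for endothelium, and Foxj1 (1.46) and Tppp3 (0.77) of 4 for ciliated cells; none was called for alveolar type I, macrophage, lymphocyte, club or erythroid cells. Summed signals, in multiples of the array's 75th percentile, were 37.5 to 49.5 in 85% O2 and 46.7 to 69.1 in 21% O2 for the alveolar type II list, and 686 to 1034 in 85% O2 and 1027 to 1198 in 21% O2 for the fibroblast list. For the smooth muscle list they were 732 to 1024 in 85% O2 and 937 to 1205 in 21% O2. For the endothelial list they were 5.08 to 7.84 and 7.55 to 9.52, and for the ciliated list 52.5 to 65.5 and 71.0 to 86.2 in the same groups. A sum rests mostly on the brightest genes, and the median differences did not all share its direction. They were 0.22 for alveolar type II (7 of 12 positive), 0.59 for endothelial (5 of 6) and 0.21 for ciliated markers (2 of 4). For fibroblast markers the median was -0.39 (1 of 9 positive) and for smooth muscle markers -0.34 (2 of 8). No marker of these lists was below background on every array. The part of these shifts in the histone results was not tested.

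Few histone genes were called between 24 h and 6 h. In vehicle, 2 of 48 histone genes passed at 24 h against 6 h, both lower, where 0.616% of the 33285 features passed, 0.388% as higher and 0.228% as lower. Hist1h3a measured -3.07, -3.04, -3.29 and -3.08 at 24 h, against -2.20, -2.55, -2.23 and -2.21 at 6 h, a difference of -0.82 (-1.08 to -0.57, limma adjusted p = 0.0177). Hist1h3g measured -2.71, -2.83, -2.39 and -2.05 at 24 h, against -1.34, -1.85, -1.62 and -1.28 at 6 h, a difference of -0.98 (-1.36 to -0.60, adjusted p = 0.0312). Neither gene's times overlapped, and with normexp background correction the Hist1h3a difference was -0.39 and not called (adjusted p = 0.146). Normexp called Hist1h3g and Hist2h3c2, whose difference without it was 1.39. Where only probes above background on every array were tested, Hist1h4m, Hist2h2aa1, Hist2h3c2 and Hist2h4 were called beside Hist1h3a and Hist1h3g. The median of the 48 was -0.26, and 32 were negative. An unadjusted limma p under 0.05 was reached by 28 of the 48, where 10.8% of all features reached it. With median centring the count was 3 of 48, and the matching share of all features is not given. The histone median was -0.25 with it, and calls over all features went from 205 to 1. With the slide as a block 5 histone genes fell and 1 rose, where 2.12% of features passed, 0.916% as lower and 1.21% as higher; Hist1h2ab, Hist2h4 and Hist1h4k joined the falls and Hist1h2be rose. With the replicate block 6 fell and 2 rose, where 2.67% of features passed, 1.12% as lower and 1.55% as higher, and Hist4h4 (-0.60) and Hist2h2aa1 (0.89) were added. With quantile normalization, median centring, the deposited values or only the 2 vehicle groups in the fit, 0 histone genes passed, as within either slide alone. Without replicate 1 of either vehicle group 0 passed, without replicate 3 or 4 at 6 h or replicate 2 or 3 at 24 h only Hist1h3a did, and without replicate 2 at 6 h Hist1h1e passed as well.

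In each class the vehicle gene with the smallest p is given, called or not. Hist1h1b measured 1.78, 1.79, 2.26 and 2.04 at 24 h, against 3.03, 2.37, 2.65 and 2.59 at 6 h (-0.69, adjusted p = 0.166). Hist2h2bb measured -0.63, -0.30, -0.55 and -0.32 at 24 h, against 0.51, -0.01, 0.35 and 0.02 at 6 h (-0.67, adjusted p = 0.145). Hist1h4m measured -2.67, -2.57, -2.58 and -2.33 at 24 h, against -1.55, -1.95, -2.02 and -2.18 at 6 h (-0.61, adjusted p = 0.0864). In these 3 genes no array at 24 h reached the lowest at 6 h, but none passed. Hist2h2aa1 measured 2.78, 3.12, 2.55 and 2.57 at 24 h, against 1.58, 2.13, 2.13 and 1.60 at 6 h (0.89, adjusted p = 0.0838, and 0.0496 with the replicate block). The H3 gene Hist2h3c2 measured 1.25, 1.27, 0.85 and 1.02 at 24 h, against -0.54, 0.25, 0.24 and -1.09 at 6 h (1.39, adjusted p = 0.081). Both lay higher at 24 h on every array. They were also called where only probes above background on every array were tested, and Hist2h3c2 with normexp. The array gave no genome position for the Hist2h3c2 probe and listed 0 RefSeq transcripts for it. Its gene was matched by an older symbol.

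In NaHS-treated cells 1 of 48 histone genes passed at 24 h against 6 h, where 0.027% of features passed, 0.021% as higher and 0.00601% as lower. It was again Hist1h3a, at -3.13, -3.23, -3.06 and -3.16 at 24 h against -2.61, -2.32, -2.15 and -2.21 at 6 h, a difference of -0.82 (adjusted p = 0.0418). The call was lost when any 1 of the 8 arrays was left out, and normexp correction gave -0.47 for Hist1h3a (adjusted p = 0.167). With the slide as a block it was again the single histone gene to pass (adjusted p = 0.0283), where 0.0991% of features passed, 0.0811% as higher and 0.018% as lower. With the replicate block it also passed alone (adjusted p = 0.0442), where 0.105% of features passed, 0.0721% as higher and 0.033% as lower. Hist1h3i measured -2.35, -2.38, -2.08 and -2.42 at 24 h, against -1.88, -1.64, -1.68 and -1.94 at 6 h (-0.52, adjusted p = 0.302). Hist1h2bm measured 3.73, 4.18, 3.49 and 3.49 at 24 h, against 3.02, 3.0, 3.30 and 3.02 at 6 h (0.64, adjusted p = 0.215). Hist2h3c2 measured 0.55, 1.33, 0.45 and 0.82 at 24 h, against -0.43, -1.02, 0.19 and -1.07 at 6 h (1.37, adjusted p = 0.236). The 2 times did not overlap in these 3 genes, though none was called. Of all 48 genes 6 lay lower and 4 higher at 24 h with no overlap in NaHS, where 2.16% and 3.6% of features did. In vehicle 11 lay lower and 7 higher, where 2.89% and 3.89% did. In NaHS 19 of 48 had an unadjusted limma p under 0.05, where 7.29% of all features did. With median centring the count was 1 of 48, and the matching share of all features is not given. The histone median was -0.21 with it, and calls over all features went from 9 to 0.

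**Figure D5:**
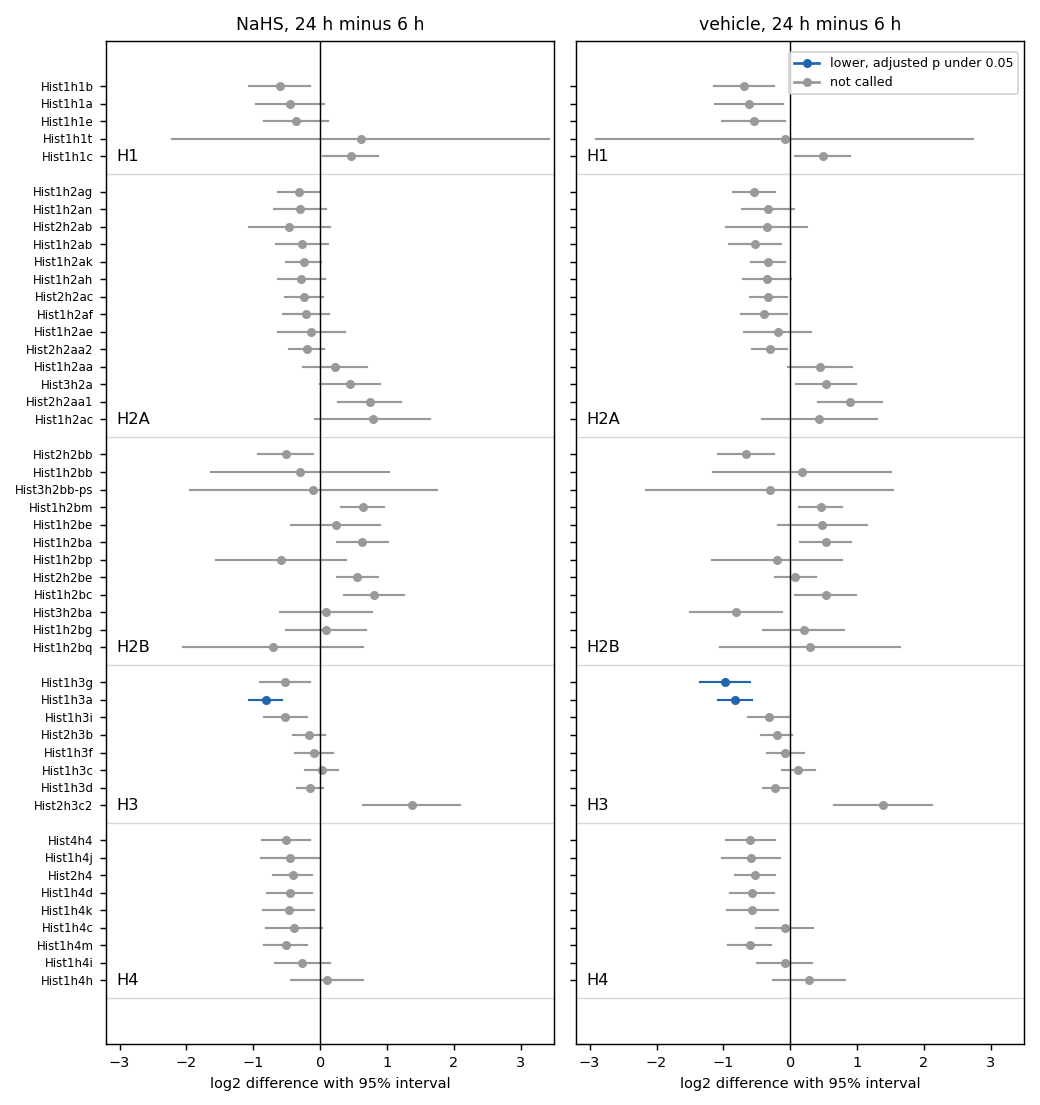
Log2 difference of each clustered histone gene at 24 h minus 6 h, in NaHS (left) and in vehicle (right), with 95% intervals (n = 4 arrays at each time). Hist1h3a is called in both, Hist1h3g in vehicle, and the widest intervals are those of Hist1h1t and Hist3h2bb-ps, which differ between the slides, followed by the dim Hist1h2bq.

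The S phase list had 1 of 28 genes called in vehicle at 24 h against 6 h, Mcm5 (a subunit of the replicative helicase, -0.88), with a median of -0.46 and 0 positive differences, where 0.228% of all features were called lower. Of the chaperone list Asf1b (-0.87) and Hjurp (-0.64) fell. Of 79 markers tested, 4 (5.06%) were called with time in vehicle and 1 (1.27%) in NaHS, where 0.616% and 0.027% of all features were. In vehicle, Sftpa1 (-3.14), the club cell gene Scgb3a1 (-3.72), Thy1 (1.16) and Notch3 (1.24) were called, and in NaHS the macrophage gene C1qa (2.26). Median differences in vehicle were -0.12 for alveolar type II (4 of 13 positive) and 0.12 for fibroblast markers (5 of 9). For smooth muscle they were 0.77 (8 of 8), for club cells -2.88 (0 of 5) and for macrophages 0.82 (11 of 11). The macrophage median in NaHS was 0.65 (10 of 11). In vehicle, summed signals were 47.6 to 73.9 at 24 h and 59.6 to 117 at 6 h for 14 alveolar type II markers, 1176 to 1395 at 24 h and 735 to 1280 at 6 h for 9 fibroblast markers, and 1214 to 1369 at 24 h and 662 to 1200 at 6 h for 8 smooth muscle markers. They were 2.42 to 19.4 at 24 h and 24.8 to 195 at 6 h for 5 club cell markers in vehicle, and 4.83 to 17.4 at 24 h and 4.17 to 9.94 at 6 h for 11 macrophage markers in NaHS. Their part in the histone results was not tested.

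Time in vehicle and oxygen under GYY4137, which share no arrays, gave like signs gene by gene. Of the 48 histone genes 29 were lower both at 24 h against 6 h and in 85% against 21% O2, 14 were higher in both and 5 had opposite signs, so 89.6% had the same sign, against 50.1% of 32235 features tested in both experiments. Sign here is that of the difference and not a call. The histone genes are not independent readings, since several probes share sequence and the replicates kept the same order in many genes. Among H4 genes, in vehicle 8 of 9 differences over time were negative, with a median of -0.57, and in NaHS 8 of 9 were, with a median of -0.45, beside 8 of 9 and a median of -1.49 in 85% against 21% O2.

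NaHS itself called none of the histone genes. Against vehicle, limma passed 0 of 48 at 6 h and 0 at 24 h, where 0% of all 33285 features passed at either time, and 1 histone gene at each time had an unadjusted p under 0.05, where 0.589% and 2.21% of all features did. The slide and replicate blocks also called 0. The medians were -0.12 at 6 h and -0.04 at 24 h, and their direction turned with the slide. At 6 h the median was -0.16 on slide 1, with 10 of 48 genes positive, and 0.0032 on slide 2, with 24 positive. At 24 h it was 0.092 on slide 1, with 28 positive, and -0.20 on slide 2, with 5 positive. A 2-fold change in either direction was outside the 95% interval for 40 genes at 6 h and 40 at 24 h, and for 43 and 45 with the slide as a block, and inside it for the others.

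The genes with the smallest p are given for each time. At 6 h Hist2h2be measured -3.19, -3.31, -3.02 and -3.40 in NaHS, against -3.04, -2.50, -3.03 and -2.93 in vehicle (-0.35, unadjusted p = 0.0283 and adjusted p = 1 with limma). Hist1h2bc measured 4.03, 3.60, 4.40 and 3.64 in NaHS, against 4.22, 4.62, 4.47 and 4.13 in vehicle, a difference of -0.44. The groups overlapped in both genes. Hist1h4c measured -0.31, -0.52, -0.31 and -0.56 in NaHS, against -1.27, -0.74, -0.30 and -0.67 in vehicle, a difference of 0.32. Hist1h3i measured -1.88, -1.64, -1.68 and -1.94 in NaHS, against -1.73, -2.33, -2.04 and -1.96 in vehicle, a difference of 0.23. Here too the groups overlapped.

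At 24 h Hist1h3g measured -2.05, -2.27, -1.76 and -1.96 in NaHS, against -2.71, -2.83, -2.39 and -2.05 in vehicle (0.49, unadjusted p = 0.016 and adjusted p = 1 with limma). Hist3h2ba measured -3.81, -4.27, -3.75 and -4.01 in NaHS, against -4.20, -5.38, -3.70 and -4.39 in vehicle, a difference of 0.46. Neither pair of groups was separate, and Hist3h2ba was above background on 3 of 4 vehicle arrays. Hist1h4i measured 0.78, 0.86, 1.0 and 0.21 in NaHS, against 0.92, 1.34, 1.03 and 0.98 in vehicle, a difference of -0.36. Hist2h2aa1 measured 2.60, 2.93, 2.05 and 2.17 in NaHS, against 2.78, 3.12, 2.55 and 2.57 in vehicle, a difference of -0.32. Both pairs of groups overlapped.

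The NaHS effect at 24 h minus that at 6 h was tested as an interaction, and 0 of 48 histone genes passed, as did 0% of all features; 1 histone gene and 1.07% of features had an unadjusted p under 0.05. The median was 0.08, and 0.27 on slide 1 and -0.18 on slide 2. The gene with an unadjusted p under 0.05 was Hist2h2be (0.48, adjusted p = 1), at -2.73, -2.39, -2.95 and -2.63 in NaHS at 24 h against -2.80, -2.80, -2.86 and -2.75 in vehicle at 24 h. The next by p with a positive value was Hist3h2ba (0.89), at -4.01, -4.25, -3.66 and -4.24 in NaHS at 6 h against -4.31, -3.61, -3.21 and -3.31 in vehicle at 6 h, and those with negative values were Hist1h2bq (-1.01), with an interval from -2.91 to 0.90, and Hist1h4c (-0.31). Hist1h2bq measured -7.23, -5.51, -6.03 and -5.97 in NaHS at 24 h, against -6.13, -5.03, -7.27 and -5.04 in vehicle at 24 h. At 6 h it measured -5.34, -5.90, -4.80 and -5.86 in NaHS, against -7.02, -7.00, -6.18 and -4.43 in vehicle. It was above background on 0 of 4 arrays in NaHS and 2 of 4 in vehicle at 24 h, and on 1 of 4 in each group at 6 h, so these values rest on dim spots. Hist1h4c measured -0.62, -1.08, -0.46 and -1.11 in NaHS at 24 h, against -0.92, -0.63, -0.78 and -0.99 in vehicle at 24 h.

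Promoters are shown for the linker histone genes with the steepest fall and rise in 85% O2, because members of 1 class moved apart. The windows are those of RefSeq on GRCm38.p6, from 250 bases before to 50 after the start, 5′ to 3′ on the gene's strand. Hist1h1b lies at chr13:21780576-21780875 (minus strand) and Hist1h1c at chr13:23738557-23738856 (plus strand), and capitals mark 4 motifs read on either strand, whose reverse complements count too. They are the CCAAT box, the TATA box in the form TATAAA, the octamer ATTTGCAT, and AAACACA.
Hist1h1b: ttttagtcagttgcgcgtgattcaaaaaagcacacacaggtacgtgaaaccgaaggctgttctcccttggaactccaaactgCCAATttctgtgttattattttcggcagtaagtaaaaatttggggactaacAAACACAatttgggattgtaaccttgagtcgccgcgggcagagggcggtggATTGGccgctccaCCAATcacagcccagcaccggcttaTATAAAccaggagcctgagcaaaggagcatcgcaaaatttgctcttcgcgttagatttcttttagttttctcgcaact
Hist1h1c: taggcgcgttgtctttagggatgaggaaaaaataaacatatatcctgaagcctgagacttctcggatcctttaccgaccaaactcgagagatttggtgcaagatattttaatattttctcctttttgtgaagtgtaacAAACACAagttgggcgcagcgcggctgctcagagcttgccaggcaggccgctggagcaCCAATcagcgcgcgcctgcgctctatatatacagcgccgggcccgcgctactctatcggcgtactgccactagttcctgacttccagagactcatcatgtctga
Both windows hold CCAAT, 3 times in Hist1h1b and 1 time in Hist1h1c, and AAACACA, a sequence known from H1 promoters, and only Hist1h1b holds TATAAA. A window was matched for 43 of the 49 genes, 44 windows in all. CCAAT stood in 86.4% of them and in 37.4% of all 32851 promoters, TATAAA in 59.1% and 13.6%, the octamer ATTTGCAT in 29.5% and 1.74%, and AAACACA in 20.5% and 7.18%. By direction in 85% O2, CCAAT stood in the windows of 17 of 21 genes that fell and 6 of 7 that rose. TATAAA stood in 14 of 21 and 4 of 7, ATTTGCAT in 4 of 21 and 4 of 7. AAACACA stood in 3 of 21 and 2 of 7. Of 14 genes not called, 13 held CCAAT, 7 TATAAA, 5 ATTTGCAT and 3 AAACACA. The genes that fell and those that rose differ in class. These counts describe the letters in the windows and were not tested.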

How the data were processed

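Cy3-labelled RNA of 24 samples was hybridised to 1-colour Agilent mouse arrays. The deposited intensity values were extracted by the authors with Agilent Feature Extraction 10.7.3.1 (submitters' processing notes) and are background-subtracted and detrended, per the file headers. Upstream cell and RNA quality steps are not given in the sources used here. Here, control spots and outlier spots were left out, spots of a probe were averaged, and log2 signals were set against each array's 75th percentile. A gene was tested where its probe lay well above background on at least 4 arrays of its experiment. limma 3.58.1 in R 4.3.3 (lmFit, eBayes) was fitted for each experiment over all its groups, and p-values were adjusted by Benjamini and Hochberg over all features. The deposited log2 value table (medians 5.95 and 7.07, scale and centring not stated by the authors) was an alternative, beside normexp, quantile normalization, median centring, other dim-probe filters, the mean of a gene's probes, slide and replicate blocks, each slide alone and each array left out. The fit was tested on simulated data. The number of arrays limits the precision, and 0 histone probes were saturated.

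The members and lists were chosen with earlier results of these data known. Values in every sample were given for called genes, up to the 12 with the smallest p in a comparison. Where fewer than 3 were called, the 2 with the smallest p in each direction were given. The gene with the smallest p in each class was added for vehicle over time and for oxygen. List genes were named only if called, up to 4 per list. The replicate numbers come from the sample titles. Deviations of same-numbered arrays from their group means correlated at 0.176 to 0.334 in the oxygen experiment (4 of 4 pairs above 0.1) and at 0.380 to 0.769 in the NaHS experiment (24 of 24), where same-numbered arrays also shared a slide. Same-numbered arrays of the oxygen experiment lay in the same column of their slides. Promoter windows and current gene names come from RefSeq; 47 genes matched by accession and 2 by an older symbol. Probe positions are those of the array files (mm9).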

Additional observations from a re-analysis of the deposited data

Results flagged for a closer look

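Among the 69 sets of 4 arrays behind the genes given array by array, 4 held 1 array far from the other 3 by Dixon's criterion, where chance marks about 1 set in 20. Hist1h3a in vehicle at 6 h was -2.55 in replicate 2, against -2.23 to -2.20 in the others. Hist1h2bm in NaHS at 6 h was 3.30 in replicate 3, against 3.0 to 3.02. Hist1h2ac in 85% O2 was -3.43 in replicate 3, against -3.06 to -2.99, and remained above its 21% O2 group. Hist1h3g in 85% O2 was -3.70 in replicate 2, against -3.34 to -3.28, and remained below its 21% O2 group.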

How the results depend on the processing

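In 85% against 21% O2, 24 to 31 histone genes were called with 1 array left out and 27 to 33 under the other settings, with the median at -0.82 to -0.59 with 1 array left out. All features called ranged from 2086 (without 85% O2 replicate 3) to 6779, with 2512 without 85% O2 replicate 4, 2579 without 21% O2 replicate 2, 3376 without 21% O2 replicate 3 and 3517 without 85% O2 replicate 1. Time results changed most. In vehicle, histone genes called were 0 with quantile normalization, median centring, the deposited values, either slide alone or only the groups compared, 1 with no dim-probe filter, 6 with probes above background on every array, 6 with the slide block and 8 with the replicate block. Those called with normexp in vehicle were Hist1h3g and Hist2h3c2. All features called there were 512 with normexp, 1 with median centring, 52 with no filter, 590 with the every-array filter, 115 with mean probes, 707 with the slide block, 889 with the replicate block, 0 and 1 on slides 1 and 2 and 0 with only the groups compared. The vehicle median was -0.16 with normexp, -0.41 on slide 1 and -0.13 on slide 2. With 1 array left out, vehicle gave 0 to 3 histone genes, 6 to 323 features and medians of -0.34 to -0.20. In NaHS over time, 0 histone genes were called with normexp, quantile normalization, median centring, the deposited values, no filter, either slide alone, only the groups compared or any array left out. All features called there were 30 with normexp, 2 with quantile normalization or the deposited values, 0 with median centring, no filter, either slide or only the groups compared, 59 with the every-array filter, 33 with the slide block, 35 with the replicate block and 0 to 3 with 1 array left out. Its median was -0.083 on slide 1 and -0.39 on slide 2, and -0.31 to -0.18 with 1 array left out. For NaHS against vehicle the counts remained 0 under every setting run. The median at 6 h was 0.0032 on slide 2, that at 24 h 0.092 on slide 1 and -0.20 on slide 2, and that of the interaction 0.27 on slide 1 and -0.18 on slide 2. With 1 array left out they were -0.17 to -0.08, -0.09 to 0.02 and -0.011 to 0.12. Hist3h2ba at 24 h reversed with normexp (-0.10). The replicate block called 32 histone genes by oxygen, 29 of them shared with the fit without it, and 5303 features. The causes were not tested. Slide and oxygen cannot be told apart, and dim spots limit 8 genes.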
